A study of Homo sapiens with 27 samples.

Results

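S100 proteins are small calcium-binding proteins with EF-hand motifs that act mostly as dimers, changing shape with calcium to hold partners such as annexins and non-muscle myosin. S100A4, also called metastasin or fibroblast-specific protein, is known from mesenchymal and motile cells. S100A2, S100A8, S100A9, S100A14, S100A16 and S100P are mostly described in epithelia and carcinomas, S100A8 and S100A9 also in neutrophils and monocytes, and S100A6, S100A10 and S100A11 are expressed widely. These 10 genes were taken by symbol from a table of 57165 genes, and each symbol had 1 row. They made up between 0.130% and 0.191% of the counts of a library.

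RNA was sequenced from SUM159 and MDA-MB-231, human lines of triple negative breast cancer (TNBC), after the gene of ZEB1, a transcription factor that binds E-boxes and maintains the mesenchymal state, had been targeted. Cells carried a lentiviral dCas9-KRAB, a catalytically dead Cas9 fused to a repressor domain, and were selected in puromycin. The control with dCas9-KRAB and no guide is called No gRNA, and wild type cells were not transduced. SUM159 carried gRNA 4 on its own or every guide together (All gRNA). With both controls this made 4 groups of 3 libraries, taken as run 1. MDA-MB-231 had the same 4 groups, taken as run 2 with 3 more SUM159 wild type libraries, giving 27 libraries in 9 groups. Only those 3 SUM159 libraries have a run in their title (run 2). The other runs were read from prefixes of the column headings, which do not say what they stand for. For 6 MDA-MB-231 libraries the title of the sample and the heading of its column disagree over the gRNA. The 3 titled gRNA 4 whose columns say all gRNAs are named set 1, and the 3 with the reverse are named set 2. The methods call the replicates individual clones, so p-values measure the spread between clones handled this way.

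Libraries held between 15461200 and 21473757 estimated counts, so that 1 count was worth between 0.0466 and 0.0647 CPM (counts scaled to the library total, with TMM factors). Targeting was seen in the gene itself. ZEB1 lay between 70.7 and 77.3 CPM in SUM159 No gRNA, between 2.57 and 4.56 with gRNA 4 and between 0.375 and 1.02 with All gRNA. ZEB1 of MDA-MB-231 lay between 104 and 122 CPM in No gRNA, between 4.75 and 5.74 in set 1 and between 3.70 and 5.43 in set 2. Of the receptors whose absence defines TNBC, ESR1 and PGR stayed at 3 counts or fewer throughout the SUM159 libraries, and the summed level of ESR1, PGR and ERBB2 was between 38.2 and 72.3 CPM in all libraries. Changes are log2 fold changes against No gRNA of the same line. "Called" means an adjusted p under 0.05 by TREAT, limma's test against a log2 fold change of 1, and the moderated test of the same fit asks for a change other than 0.

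All members except S100P lie on human chromosome 1 (GRCh38). S100A10 (chr1:151982915-151993859) and S100A11 (chr1:152032506-152047907) stand apart on the minus strand. S100A9 (chr1:153357854-153361023, plus strand) and S100A8 (chr1:153390032-153391073, minus strand) come next. S100A6 (chr1:153534599-153536244), S100A4 (chr1:153543613-153550136), S100A2 (chr1:153561108-153567890), S100A16 (chr1:153606886-153613145) and S100A14 (chr1:153614255-153616986) then follow each other on the minus strand. S100P is alone on chromosome 4 (chr4:6693878-6697170, plus strand). S100A3 overlaps S100A4 on the same strand, so reads could be split between them, and lncRNAs with few counts lie opposite S100A6 and S100A11.

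ZEB1 is known to bind E-boxes of the form CACCTG, which reads CAGGTG on the other strand. RefSeq promoter windows (GRCh38.p14, 250 bases before to 50 after a start site) were searched for these letters, on both strands, and matches of these forms cannot overlap each other. All 10 members had a window, 14 in all, and 10 of these windows (71.4%) held the motif, against 20.6% of all 35116 windows. The 3 windows of S100A8 overlap and share 1 site. By gene, 7 members held it in at least 1 window, against 24.1% of all 27305 genes. S100A6, S100A10 and S100A11 held none. S100A2 and S100A8 held it too, and the stretches of the other 5, S100A4 and 4 epithelial members, are given 5′ to 3′ on the strand of the gene, with the E-box in capitals.
S100A4 (chr1:153545941-153545994, minus strand, first base of the E-box at -164 from the start site): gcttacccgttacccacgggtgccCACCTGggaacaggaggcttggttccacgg
S100A9 (chr1:153357738-153357791, plus strand, -92): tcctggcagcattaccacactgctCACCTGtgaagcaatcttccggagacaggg
S100A14 (chr1:153616326-153616351, minus strand, -14): aagagctgagctCAGGTGagctggct
S100A16 (chr1:153613299-153613352, minus strand, -191 and -178): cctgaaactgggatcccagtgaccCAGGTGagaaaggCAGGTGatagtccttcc
S100P (chr4:6693636-6693689, plus strand, -218): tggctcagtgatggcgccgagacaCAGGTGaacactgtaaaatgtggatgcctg
The motif stands in the windows of members with lower and with higher values after targeting. A match is a description of these letters and says nothing of binding.

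In No gRNA cells the widely expressed members led the family in both lines. Per kilobase of the canonical transcript, S100A6, which binds the calcyclin-binding protein, stood first in all 9 groups, with 1118 CPM per kb in SUM159 No gRNA and 2168 in MDA-MB-231 No gRNA. S100A11 stood second in all 9, with 494 and 423 CPM per kb. S100A4 was far lower, at 11.9 CPM per kb in SUM159 No gRNA and 37.9 in MDA-MB-231 No gRNA. The epithelial members were not low as a group. S100A16 had 168 and 236 CPM per kb and S100A2 had 181 and 12.7, while S100A14 had a mean of at most 1.55 CPM per kb in any group.

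**Figure D1:**
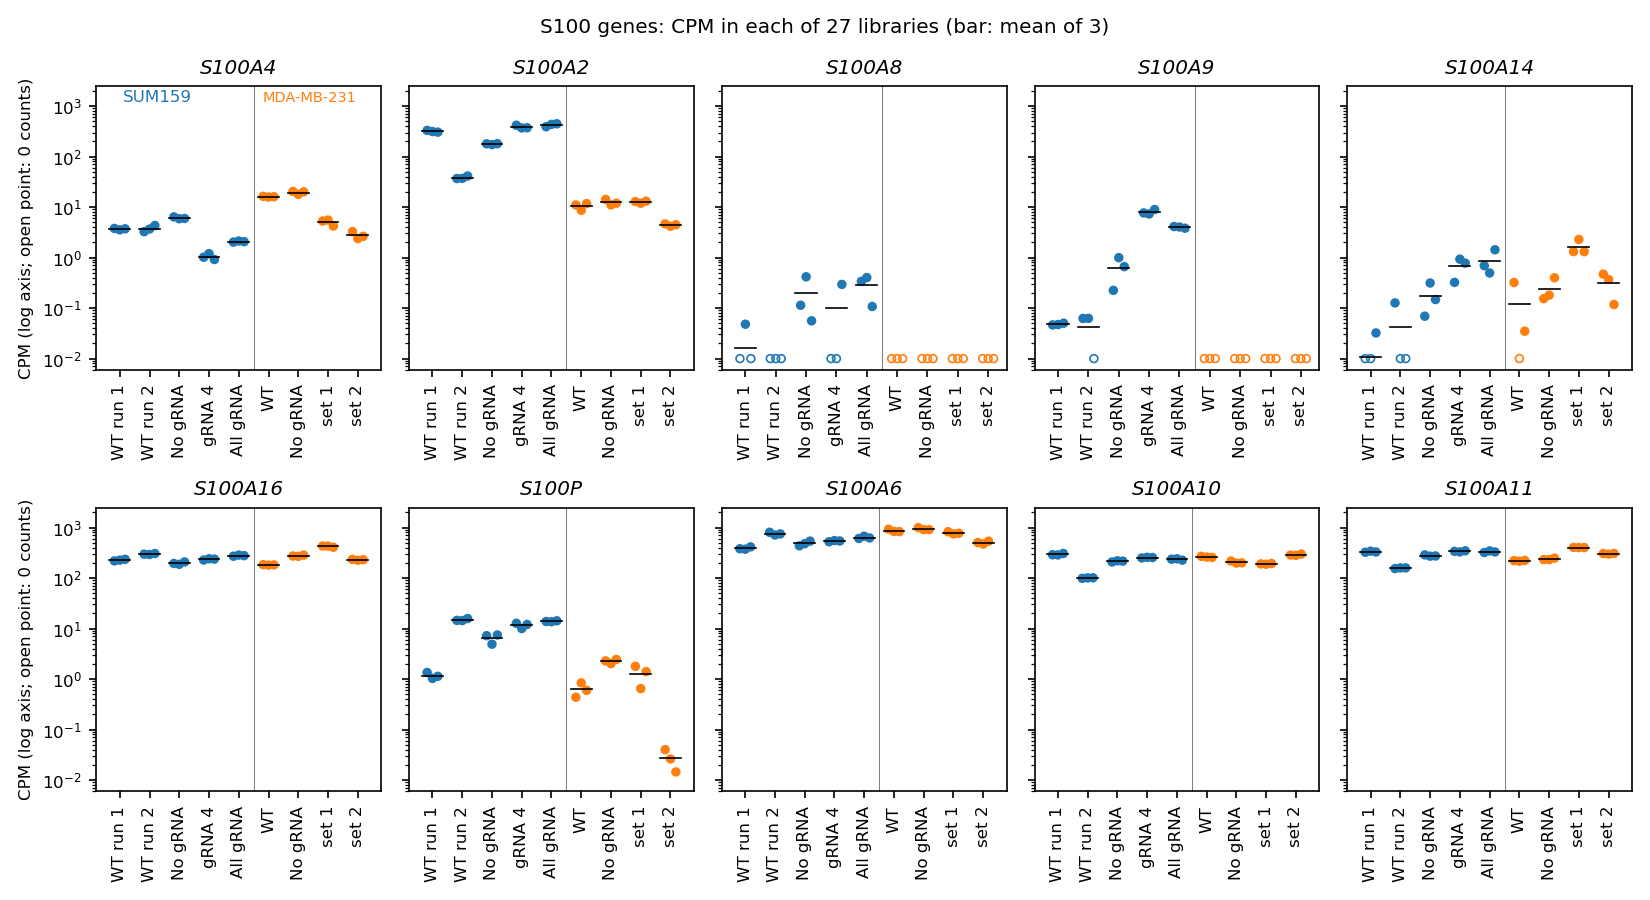
CPM of the 10 S100 genes in each of the 27 libraries, on a log axis, with SUM159 in blue and MDA-MB-231 in orange. Points are libraries, open points are libraries with 0 counts drawn at the bottom of the axis, and bars are means of 3. S100A4 is below No gRNA in all 12 targeted libraries, S100A8 and S100A9 have 0 counts in all MDA-MB-231 libraries, and S100P is near 0 in set 2.

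S100A4 was lower in every targeted group than in No gRNA of its line. In SUM159 the 3 No gRNA libraries had 6.40, 5.88 and 5.96 CPM, the gRNA 4 libraries 1.02, 1.20 and 0.917, and the All gRNA libraries 2.03, 2.13 and 2.07. The groups did not overlap, and gRNA 4 lay lowest. With gRNA 4 the log2 fold change was -2.53 (SE 0.17, TREAT adjusted p = 0.000529), and S100A4 was called. With All gRNA it was -1.54 (SE 0.14, TREAT adjusted p = 0.226), which missed the threshold after adjustment over all genes, while the moderated test gave an adjusted p of 2.34e-05. The MDA-MB-231 No gRNA libraries had 20.4, 17.9 and 20.1 CPM, set 1 had 5.29, 5.53 and 4.22, and set 2 had 3.28, 2.38 and 2.63. Again no library of a targeted group reached the control, and S100A4 was called in both sets. The log2 fold change was -1.95 in set 1 (SE 0.13, TREAT adjusted p = 0.00070) and -2.79 in set 2 (SE 0.15, TREAT adjusted p = 8.20e-06). Set 2 was lower than set 1 by the moderated test of limma (-0.84, adjusted p = 0.00173), and that difference was not called by TREAT. In these bulk samples, fewer cells with the RNA and less RNA per cell cannot be told apart.

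The wild type cells place S100A4 differently in the lines. SUM159 wild type had 3.78, 3.55 and 3.71 CPM in run 1 and 3.26, 3.68 and 4.32 in run 2, and the runs overlapped. SUM159 No gRNA was thus above its own wild type, with a log2 fold change of 0.71 (SE 0.12, moderated adjusted p = 0.000504 by limma). Against wild type the change of S100A4 came to -0.82 for All gRNA (TREAT adjusted p = 1) and to -1.81 for gRNA 4 (TREAT adjusted p = 0.0173). MDA-MB-231 wild type had 16.3, 15.8 and 16.1 CPM, and against it S100A4 was called in set 1 (-1.73, TREAT adjusted p = 0.00154) and in set 2 (-2.57, TREAT adjusted p = 5.27e-05). Among wild type cells of run 2, S100A4 was higher in MDA-MB-231 than in SUM159 by 2.10 (SE 0.13, TREAT adjusted p = 4.39e-05). In order of mean CPM, MDA-MB-231 No gRNA led, followed by MDA-MB-231 wild type, SUM159 No gRNA, set 1, both SUM159 wild type groups, set 2, All gRNA and gRNA 4. SUM159 wild type of run 2 overlapped set 1, set 2 and wild type of run 1, and no other neighbours in this order overlapped.

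The sums of 2 marker lists also differed between these groups, with members in both directions. The summed level of the mesenchymal genes VIM, FN1 and CDH2 was between 6154 and 6304 CPM in SUM159 No gRNA, between 5073 and 5766 with gRNA 4 and between 5246 and 5899 with All gRNA. The MDA-MB-231 sums lay between 3615 and 3926 CPM in No gRNA, between 1931 and 2118 in set 1, between 2858 and 2906 in set 2 and between 2684 and 2769 in wild type. In the order All gRNA, gRNA 4, set 1 and set 2, FN1 was lower than in No gRNA by the moderated test of limma (-0.71, -0.51, -1.002 and -1.89). No gRNA was itself above wild type for FN1, by 0.53 in SUM159 and 2.55 in MDA-MB-231. In that contrast VIM had 0.24 and -0.12, and CDH2 had 0.04 and 0.20. Against No gRNA, in the order above, VIM had 0.09, -0.02, -0.85 and 0.10, and was higher in set 2 (limma moderated adjusted p = 0.00118). CDH2 had -0.58, -0.52, -0.75 and 2.09. Its errors were wide in sets 1 and 2 (SE 0.90 and 0.67), so these fitted values are given without a test. The epithelial list of CDH1, EPCAM, KRT8, KRT18 and KRT19 summed to between 809 and 840 CPM in MDA-MB-231 No gRNA, between 1412 and 1488 in set 1, between 2762 and 2865 in set 2 and between 1362 and 1399 in wild type. In SUM159 it was between 352 and 365 CPM in No gRNA and between 441 and 477 over both targeted groups, with CDH1, EPCAM and KRT19 at or under 3 counts in No gRNA and KRT19 also after targeting. Within the epithelial list KRT8 had -0.07, 0.03, -0.12 and 1.96 in the order above, and KRT18 had 0.59, 0.56, 0.75 and 1.57. EPCAM and KRT19 were higher in both MDA-MB-231 sets by the moderated test of limma. CDH1 was at or under 3 counts in MDA-MB-231 wild type. Its fitted values of 5.36 in set 1 (SE 0.92) and 2.72 in set 2 (SE 0.99) are given without a test. The part of these shifts in the values of S100A4 was not tested.

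S100A9 lay above No gRNA in both targeted SUM159 groups, and no other member had an upward TREAT call against No gRNA. S100A9 pairs with S100A8 to form calprotectin, a zinc- and calcium-binding complex of neutrophils and of stressed keratinocytes. No gRNA had 0.225, 0.997 and 0.662 CPM, gRNA 4 had 7.67, 7.31 and 8.95, and All gRNA had 4.12, 4.03 and 3.82. The targeted groups lay above the control without overlap, and gRNA 4 above All gRNA. The log2 fold change was 3.82 with gRNA 4 (SE 0.34, TREAT adjusted p = 0.000923) and 2.84 with All gRNA (SE 0.35, TREAT adjusted p = 0.0371). The call with All gRNA was lost without the No gRNA replicate 1 or 3 or any one All gRNA library (TREAT adjusted p up to 0.157). It was also lost with no filter on low counts (adjusted p = 0.0616), with the replicate number as a block (0.0927) and with only the 6 libraries compared (0.254). Against No gRNA S100A9 was tested only in SUM159, since it had 0 counts in all 12 MDA-MB-231 libraries. It passed the filter on low counts through the targeted groups, so its calls and p-values here are descriptions and no support for a change. SUM159 wild type was at the floor of 3 counts per library, so that S100A9 was at least 27.2-fold higher with All gRNA and at least 54.3-fold higher with gRNA 4 than in wild type. No gRNA itself was at least 4.28-fold above wild type.

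S100A8, the partner of S100A9, did not follow it to a measurable level. Its counts were between 0 and 7.14 in every SUM159 library, with at most 0.416 CPM, and it had 0 counts in all MDA-MB-231 libraries, so it was left out of every test. Of the myeloid markers, PTPRC, LYZ, FCGR3A and MPO were at or under 3 counts per library in SUM159 No gRNA, gRNA 4 and All gRNA. The sum of all 7 markers was lower with gRNA 4 (0.648 to 1.38 CPM) and All gRNA (0.512 to 1.60 CPM) than in No gRNA (2.83 to 3.68 CPM). SUM159 wild type also lay below No gRNA in this sum, with 0.380 to 1.36 CPM in run 1 and 1.33 to 1.78 CPM in run 2. The keratinocyte list was higher in sum beside S100A9, through KRT6A. Its 7 genes summed to between 67.1 and 77.7 CPM in No gRNA, between 469 and 574 with gRNA 4 and between 539 and 608 with All gRNA. KRT6A, a keratin of activated keratinocytes, had 43.2 to 52.8 CPM of it in No gRNA, 446 to 553 with gRNA 4 and 519 to 590 with All gRNA, while KRT1, IVL and SPRR1B were at or under 3 counts in these 3 groups. KRT5 went the other way, with -1.005 for All gRNA (limma moderated adjusted p = 0.0439) and -0.80 for gRNA 4, KRT10 had -0.05 and -0.11, and KRT14 had 0.80 and 1.24 (limma moderated adjusted p = 0.343 and 0.121). No gRNA was itself above SUM159 wild type of run 1, where the list summed to between 31.3 and 39.5 CPM. By gene that difference was 2.60 for KRT5, 1.92 for KRT6A, 1.83 for KRT14 and -0.25 for KRT10. The part of that list in the value of S100A9 was not tested.

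S100A2, a nuclear S100 protein of basal epithelial cells, was higher in both targeted SUM159 groups and lower in set 2 by the moderated test. In SUM159 the No gRNA libraries had 179, 173 and 180 CPM, gRNA 4 had 417, 369 and 372, and All gRNA had 390, 435 and 446. Every targeted library was above every No gRNA library. The log2 fold change was 1.11 with gRNA 4 (SE 0.07) and 1.25 with All gRNA (SE 0.07), with moderated adjusted p of 1.13e-06 and 4.36e-07 from limma, and neither was called by TREAT. SUM159 wild type of run 1 had 330, 313 and 305 CPM, so No gRNA lay below its wild type (-0.84, limma moderated adjusted p = 2.74e-06), and against wild type the change was 0.27 with gRNA 4 and 0.41 for All gRNA. S100A2 was a low gene in MDA-MB-231. No gRNA had 14.2, 11.05 and 11.95 CPM, set 1 had 12.9, 11.9 and 13.1, and set 2 had 4.65, 4.17 and 4.47. Set 1 overlapped No gRNA and set 2 lay below it, with log2 fold changes of 0.04 (limma moderated adjusted p = 0.834) and -1.45 (limma moderated adjusted p = 1.45e-05, TREAT adjusted p = 0.145).

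S100P, first found in placenta and raised in several carcinomas, rose in SUM159 and fell in MDA-MB-231 by the moderated test. SUM159 No gRNA had 7.23, 4.91 and 7.47 CPM, gRNA 4 had 12.7, 10.0 and 12.1, and All gRNA had 13.8, 13.7 and 14.3. The targeted libraries were all above the control, with a log2 fold change of 0.83 with gRNA 4 and 1.11 with All gRNA (limma moderated adjusted p = 0.00539 and 0.00075). In MDA-MB-231 No gRNA had 2.30, 2.03 and 2.45 CPM and set 1 had 1.79, 0.648 and 1.41, a log2 fold change of -0.92 (SE 0.31, limma moderated adjusted p = 0.0358). Set 2 was at the floor, with under 1 estimated count in each library, so S100P was at least 12.6-fold lower than in No gRNA and at least 7.14-fold lower than in set 1. TREAT called it in both of these comparisons (adjusted p = 0.00137 and 0.0108), and the call against set 1 was lost without the libraries numbered 1 or 3 (adjusted p = 0.132 and 0.276). The controls themselves moved, and SUM159 wild type of run 2 had 14.5, 14.4 and 15.8 CPM, above every targeted SUM159 library. Wild type had 1.35, 1.03 and 1.14 CPM in SUM159 of run 1, which made No gRNA higher by 2.44 (SE 0.25, TREAT adjusted p = 0.00674), a call lost without the libraries numbered 1 or 3 (adjusted p = 0.141 and 0.212). Against that wild type S100P was called in both targeted groups, with 3.54 for All gRNA and 3.27 for gRNA 4 (TREAT adjusted p = 3.13e-05 and 8.34e-05). MDA-MB-231 wild type had 0.436, 0.843 and 0.598 CPM, and against it the fitted log2 fold change was 0.87 in set 1 and -3.53 in set 2, neither called by TREAT (adjusted p = 1 and 0.136).

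S100A14, an S100 protein of epithelial cell membranes, was low in every group, at no more than 2.28 CPM in any library. In SUM159 No gRNA it had 0.0691, 0.314 and 0.148 CPM, with gRNA 4 0.323, 0.931 and 0.777, and with All gRNA 0.693, 0.496 and 1.43. The highest control library and the lowest library with gRNA 4 were next to each other, and the groups did not overlap. The log2 fold change of 2.20 with All gRNA (SE 0.64) and that of 1.84 with gRNA 4 (SE 0.66) are given without a test, since S100A14 passed the filter on low counts through the targeted groups. In MDA-MB-231 No gRNA had 0.154, 0.181 and 0.398 CPM, set 1 had 1.32, 2.28 and 1.31, and set 2 had 0.471, 0.369 and 0.118. Set 1 lay above No gRNA, with a fitted difference of 2.68 (SE 0.59), while set 2 overlapped it (0.34, SE 0.73). Here the gene passed the filter through set 1, so this difference has no test either. Counts for this gene were between 0 and 38.5 per library. Wild type of SUM159 run 1 was at the floor, and S100A14 was at least 5.94-fold higher with All gRNA and at least 4.61-fold higher with gRNA 4 than there.

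S100A16, which is close to S100A14 on the chromosome and found in many epithelia, was abundant in both lines, with changes under 1 on the log2 scale. SUM159 No gRNA had 195, 188 and 209 CPM, gRNA 4 had 228, 242 and 238, and All gRNA had 271, 285 and 278. The groups did not overlap, and the log2 fold changes of 0.25 and 0.50 passed the moderated test of limma (adjusted p = 0.00772 and 5.54e-05). In MDA-MB-231 No gRNA had 274, 270 and 285 CPM, set 1 had 432, 429 and 408, and set 2 had 235, 226 and 231. Set 1 lay above the control and set 2 below it, by 0.62 and -0.24 on the log2 scale (limma moderated adjusted p = 5.15e-08 and 0.000112). MDA-MB-231 No gRNA was itself 0.54 above wild type, so the log2 fold change of set 2 against wild type was 0.30 (TREAT adjusted p = 1) and that of set 1 was 1.16 (TREAT adjusted p = 0.00462).

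The widely expressed members had changes under 1 on the log2 scale in all 4 comparisons with No gRNA. S100A6 was between 435 and 539 CPM in SUM159 No gRNA and between 609 and 675 with All gRNA, a log2 fold change of 0.39 (SE 0.07, limma moderated adjusted p = 0.00354). In MDA-MB-231 it was between 912 and 997 CPM in No gRNA and between 472 and 538 in set 2, a log2 fold change of -0.88 (SE 0.06, limma moderated adjusted p = 3.72e-07), and set 1 lay between them at -0.26. With gRNA 4 it was between 524 and 553 CPM, a log2 fold change of 0.15 (limma moderated adjusted p = 0.211). S100A11, a partner of annexin A1, was higher in all 4 targeted groups by the moderated test of limma, by 0.25 with All gRNA, 0.28 with gRNA 4, 0.77 in set 1 and 0.38 in set 2. Its libraries lay between 233 and 248 CPM in MDA-MB-231 No gRNA, between 402 and 405 in set 1 and between 299 and 308 in set 2. Against SUM159 wild type the log2 fold changes of S100A11 were -0.01 with All gRNA and 0.01 with gRNA 4. S100A10, which has lost calcium binding and forms a complex with annexin A2, had log2 fold changes of 0.13 and 0.24 with All gRNA and gRNA 4 (limma moderated adjusted p = 0.0959 and 0.00485), of -0.10 in set 1 (adjusted p = 0.0959) and of 0.52 in set 2 (adjusted p = 9.80e-07). With wild type as the control the S100A10 values of SUM159 turned to -0.34 and -0.23.

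**Figure D2:**
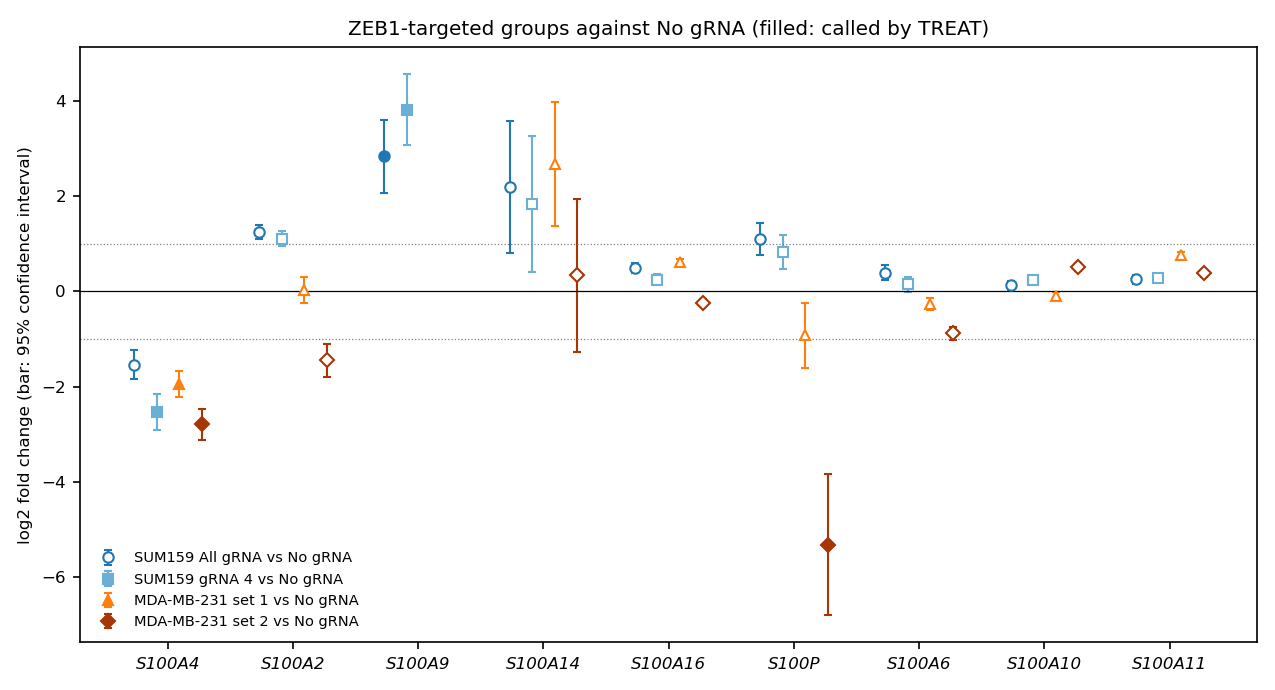
Log2 fold change of 9 S100 genes against No gRNA of the same line, with 95% confidence intervals, and filled symbols where TREAT called the gene. S100A4 is below 0 in all 4 comparisons, from -1.54 to -2.79. S100A2 and S100P are above 0 in SUM159 and below 0 in MDA-MB-231 set 2, where S100P is at the floor and its point depends on the offset added. Dotted lines mark a log2 fold change of 1 in either direction.

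Counted over the family, calls by TREAT were few and the moderated test called most members. With All gRNA TREAT called 1 of 9 tested members (S100A9), where it called 0.396% of all tested genes, and the moderated test called 7 higher and 1 lower, where it called 10.8% of all genes. With gRNA 4 TREAT called S100A9 and S100A4 (0.39% of all genes), and the moderated test called 6 higher and 1 lower (11% of all genes). In set 1 TREAT called S100A4 among 8 tested members (1.47% of all genes), and the moderated test called 3 higher and 3 lower (37.8% of all genes). In set 2 TREAT called S100A4 and S100P (4.14% of all genes), and the moderated test called 2 higher and 5 lower (52.4% of all genes). In both MDA-MB-231 sets a large share of all genes was called by the moderated test, against which the shares of members are to be read. The median log2 fold change of the tested members was 0.50 with All gRNA, 0.28 with gRNA 4, -0.03 in set 1 and -0.56 in set 2, beside medians over all genes of 0.00, -0.00, -0.01 and -0.01. The set 2 median is the same with S100P at its bound, which is still below that median. S100A9 and S100A14 in SUM159, and S100A14 in MDA-MB-231, entered through the groups where they were high, so counts and medians with them are descriptions. These members were tested because they passed the filter, which S100A8 did not in SUM159 and S100A8 and S100A9 did not in MDA-MB-231. The 4 comparisons share their No gRNA libraries within each line.

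S100A4 was also set against each other member within the same library, as a log2 ratio of CPM with 0.5 added to each. The ratio of S100A4 to S100A2 was -4.76 ± 0.05 (SD, n = 3) in SUM159 No gRNA, -7.36 ± 0.09 with All gRNA and -7.97 ± 0.18 with gRNA 4. MDA-MB-231 No gRNA had 0.63 ± 0.11, set 1 had -1.26 ± 0.25 and set 2 had -0.60 ± 0.14, so that S100A4 passed from above S100A2 to below it. Of the ratios of S100A4 to the 9 other members in 4 targeted groups, the 4 to S100A8 and S100A9 in MDA-MB-231 rest on genes at 0 counts and are left out. The other 32 were all lower than in No gRNA. S100A4 itself was lower in all 4 targeted groups, so these signs restate that in large part. The ratios to S100A8 in SUM159 rest on at most 7.14 counts per library and on the 0.5 added. For members with counts in both lines the difference was between -1.48 (S100A10) and -2.61 (S100A2) with All gRNA and between -2.26 (S100A6) and -3.21 (S100A2) with gRNA 4. In set 1 it was between -1.17 (S100P) and -3.37 (S100A14), and in set 2 between -0.23 (S100P) and -3.11 (S100A10). With 3 libraries a side, the smallest p of the two-sided exact permutation test is 0.1, and 31 ratios reached that value, the exception being S100P in set 2 (exact p = 0.2), where both genes were low. With 2 added in place of 0.5 that difference was -1.10 (exact p = 0.1), so it depends on the value added. These ratios share the S100A4 value of each library and are not independent of each other.

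**Figure D3:**
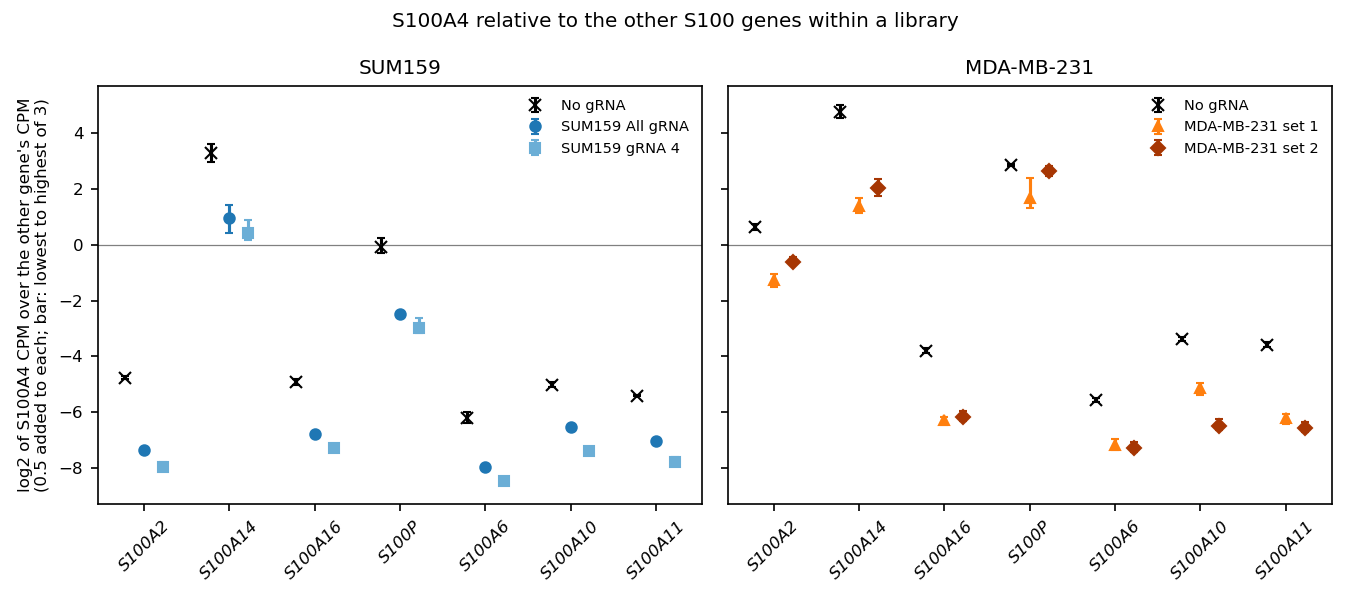
Log2 ratio of S100A4 CPM to the CPM of 7 other S100 genes within a library, with 0.5 added to each value. Symbols are means of 3 libraries and bars run from the lowest to the highest, crosses are No gRNA, and every targeted group is below No gRNA of its line, by the least for S100P in set 2 (2.62 against 2.85).

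The guide conditions were compared within each line. In SUM159 no member was called between All gRNA and gRNA 4 by TREAT, which called 0% of all genes there, with 32 genes and 0 members at an unadjusted p under 0.05. The moderated test called 3 of 9 members (0.944% of all genes), S100A4 and S100A16 higher with All gRNA (0.99 and 0.25, adjusted p = 0.0366 and 0.0386) and S100A9 lower (-0.98, adjusted p = 0.0386), where edgeR called 2 members and DESeq2 0. The others had 0.14 (S100A2), 0.24 (S100A6), -0.11 (S100A10), -0.02 (S100A11), 0.36 (S100A14) and 0.28 (S100P). In MDA-MB-231 set 2 against set 1 had S100P called by TREAT (3.07% of all genes), and the moderated test called all 8 tested members, S100A10 higher and 7 lower (51.5% of all genes). The log2 fold change was -1.49 for S100A2, -0.86 for S100A16, -0.62 for S100A6 and -0.39 for S100A11, against 0.62 for S100A10. S100A14, which passed the filter through set 1, had -2.35. Which of these sets received the pool cannot be told from the labels.

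The difference between the lines in the effect of targeting was tested over 24 libraries, as the mean change of both targeted groups in MDA-MB-231 minus that in SUM159. TREAT called 2 of 9 members (0.954% of all genes), S100A2 (-1.91, SE 0.16, adjusted p = 0.00201) and S100P (-4.11, SE 0.39, adjusted p = 2.56e-05). The moderated test called 6, S100A9 among them (25.4% of all genes). For S100A4 the difference was -0.36 (95% confidence interval -0.69 to -0.02, limma moderated adjusted p = 0.112). S100A9, with 0 counts in MDA-MB-231 and past the filter through the targeted SUM159 groups, had a fitted -3.21, given without a test. This value, and that of S100P with set 2 at the floor, depend on the offset added to the counts and are no bounds. Line and run cannot be told apart in this test. The S100A2 call was lost without the libraries numbered 2 or 3 (adjusted p = 0.0767 and 0.0850) and with no filter on low counts (-1.90, adjusted p = 0.0889). With no filter S100A9 passed the threshold, which rests on its 0 counts in MDA-MB-231. The remaining members had -0.86 (S100A6), 0.00 (S100A10), 0.28 (S100A11), -0.53 (S100A14) and -0.21 (S100A16).

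Members also differed between the controls. From wild type to SUM159 No gRNA TREAT called 1 of 9 members (1.53% of all genes), S100P, and the moderated test called all 9, 5 higher and 4 lower (42.9% of all genes). S100A6 had 0.30, S100A10 -0.46, S100A11 -0.26, S100A16 -0.21 and S100A14, with wild type at the floor, a fitted 2.48. In MDA-MB-231 TREAT called 0 of 8 (3.6% of all genes), with S100P alone at an unadjusted p under 0.05, and the moderated test of limma, edgeR and DESeq2 called 3, 3 and 0 (moderated: 53.8% of all genes). S100P had 1.79, S100A16 0.54 and S100A10 -0.41, the 3 that the moderated test called, and S100A2 had 0.19, S100A4 0.22, S100A6 0.07, S100A11 0.05 and S100A14 1.53. SUM159 wild type of run 2 against run 1 had 3 of 7 tested members called by TREAT (6.61% of all genes), and the moderated test called 6 (58.8% of all genes). S100A2 was lower in run 2, with 36.8, 37.0 and 41.3 CPM, with a log2 fold change of -3.04 (SE 0.08, TREAT adjusted p = 4.69e-07). S100A10 had -1.55 (TREAT adjusted p = 4.05e-05) and S100P had 3.65 (TREAT adjusted p = 1.86e-05). S100A6 had 0.96, S100A11 -1.07 and S100A16 0.40, while S100A4 differed by 0.02 (95% confidence interval -0.32 to 0.36). Between the wild type lines of run 2 TREAT called 4 of 7 members (28.9% of all genes), S100A4 and S100A10 higher in MDA-MB-231 and S100A2 and S100P lower, and the moderated test called all 7 (74.8% of all genes). S100P was 23.6-fold lower and S100A2 3.68-fold lower in MDA-MB-231 there. S100A10 had 1.38, S100A11 0.48, S100A6 0.19 and S100A16 -0.71.

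The other S100 genes of the cluster were followed to place S100A4 among its neighbours. Of 11 such genes 2 were tested in SUM159 and 3 in MDA-MB-231. S100A3, which overlaps S100A4, had log2 fold changes of -0.42 with All gRNA, -0.64 with gRNA 4, -0.96 in set 1 and -1.69 in set 2, and was called by TREAT only in set 2 (adjusted p = 0.0225). S100A5, between S100A6 and S100A4, stayed at 3 counts or fewer in SUM159, and MDA-MB-231 had 1.34, 1.80 and 1.57 CPM in No gRNA, 0.908, 0.675 and 0.826 in set 1 and 0.267, 0.131 and 0.508 in set 2. Its log2 fold change was -0.94 in set 1 and -2.43 in set 2 (limma moderated adjusted p = 0.0442 and 0.000582). S100A13, at the far side of S100A14, had 0.41, 0.37, -0.14 and -0.04 across these comparisons. MDA-MB-231 No gRNA was itself above wild type for S100A3 (0.72) and S100A5 (0.95) and below it for S100A13 (-0.35). Limma's moderated adjusted p for these was 0.000954, 0.0308 and 0.000638. In set 2 the 5 neighbouring genes from S100A6 to S100A2 were all lower than in No gRNA by the moderated test, which called 52.4% of all genes there. S100A4 was the lowest of them, while S100A16, S100A14 and S100A13 had -0.24, 0.34 and -0.04. This stretch was picked with the values in view. In SUM159 S100A6 and S100A2, on the outer sides of the same stretch, were higher with All gRNA.

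**Figure D4:**
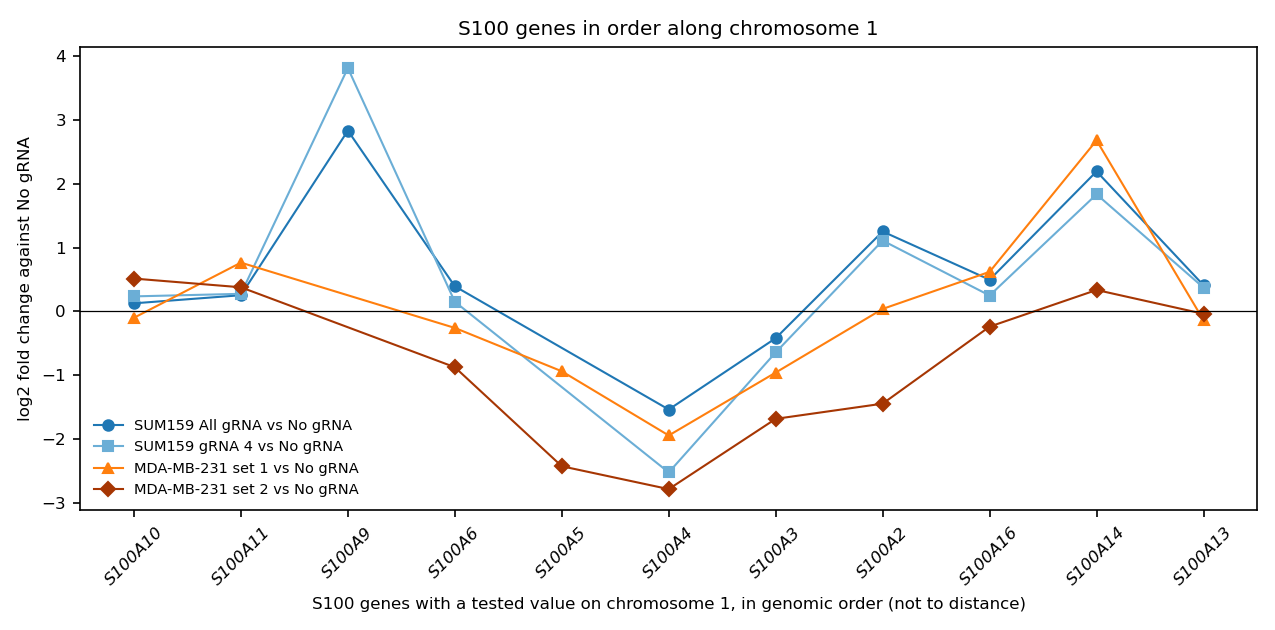
Log2 fold change against No gRNA of the 11 S100 genes of chromosome 1 that were tested, placed in genomic order without regard to distance and joined by lines for each of the 4 targeted groups. S100A4 is the lowest point in all 4 groups, and S100A2 is above 0 in SUM159 (1.25 and 1.11), at 0.04 in set 1 and at -1.45 in set 2.

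Partners and receptors of S100 proteins were also followed. Of 24 listed genes 21 were tested in SUM159 and 20 in MDA-MB-231, and TREAT called 0 in each of the 4 comparisons with No gRNA, with 0, 1, 0 and 1 at an unadjusted p under 0.05. The moderated test of limma called 3 with All gRNA, 5 with gRNA 4, 12 in set 1 and 14 in set 2, where it called 10.8%, 11%, 37.8% and 52.4% of all genes. ANXA2, which binds S100A10, had log2 fold changes of 0.08, 0.38, 0.16 and 0.15 in that order, and ANXA1, which binds S100A11, by 0.02, 0.21, -0.36 and -0.11. MYH9, the non-muscle myosin bound by S100A4, had -0.00, -0.24, 0.16 and 0.64. TLR4, a receptor for S100A8 and S100A9, had -0.14, -0.52, -0.42 and -0.55. MYH9, TLR4 and CACYBP, which binds S100A6, are named after their values were seen. CACYBP was called between the MDA-MB-231 sets, higher in set 2 by 1.25 (TREAT adjusted p = 0.0340), 1 of 20 partners where 3.07% of all genes were called. Among the controls TREAT called 1 of 20 in MDA-MB-231 No gRNA against wild type (3.6% of all genes). Between the SUM159 wild type runs it called ANXA1 and ANXA2 (-1.62 and -2.00, 6.61% of all genes), and between the wild type lines 6 of 21 (28.9% of all genes).

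The genes most like S100A4 in their pattern were found among 12241 genes with a mean count of at least 50, by the root mean square difference of log2 CPM relative to No gRNA over 6 group means (both wild types and the 4 targeted groups). They were FBLN1 and SPARC, proteins of the extracellular matrix, OLFML2A, VIPR1, a peptide receptor, and MMP19, a matrix metalloproteinase, with differences between 0.705 and 0.775. SPARC had -1.34 with All gRNA, -1.67 with gRNA 4, -2.40 in set 1 and -3.28 in set 2 on this scale. The wild types were less alike, with 0.065 in SUM159 and -1.641 in MDA-MB-231 for SPARC, against -0.707 and -0.271 for S100A4. The genes most like S100A14 were TNS4, a tensin of focal adhesions, DSP, the desmosomal protein desmoplakin, WNT9A, FRAS1 and CACNB4, with differences between 0.411 and 0.677. TNS4 had 1.71, 1.11, 1.48 and 0.05 in the same order, where S100A14 had 1.73, 1.44, 2.30 and 0.23, although S100A14 rests on a mean of only 8.7 counts per library.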

How the data were processed

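The authors sequenced 50 bp single-end reads, quantified them with Salmon against GRCh38, per the labels, and imported them with tximport. What the authors deposited is a table of estimated counts, 1 row for each gene, and the Salmon version, annotation and strandedness are not given in the sources used here. All 27 libraries were used, grouped by their labels, and 56347 of 57165 gene identifiers matched GENCODE. The tools were limma 3.58.1, DESeq2 1.42.0 and edgeR 4.0.16 in R 4.3.3. As in the study, voom (0.5 added) and limma were used, fitted here over the 12 libraries of a line, with TMM scaling, filterByExpr at a minimum count of 10, and TREAT at a log2 fold change of 1, two-sided, with Benjamini-Hochberg adjustment over all tested genes. Fits over 9 wild type libraries and over 24 libraries gave the other contrasts. Estimated counts were rounded for edgeR and DESeq2. A group at or under 3 counts in every library was treated as at the floor. All members are named in every comparison that tested them, with other S100 genes where tested, ANXA1, ANXA2 and partners called against No gRNA, and the 5 genes most like S100A4 and S100A14. The members and lists were chosen with earlier results of these data known. The steps were tested on simulated data, and alternatives are given in the closing section.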

Additional observations from a re-analysis of the deposited data

Results flagged for a closer look

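S100A2 and S100P differed between the lines in the effect of ZEB1 targeting, by a test of the difference itself (TREAT, limma, over 24 libraries). The log2 fold change in MDA-MB-231 minus that in SUM159 was -1.91 for S100A2 and -4.11 for S100P. The S100A2 call was lost without the libraries numbered 2 or 3 (adjusted p = 0.0767 and 0.0850) and with no filter on low counts (0.0889). For S100A2 the SUM159 changes were 1.25 and 1.11, against 0.04 and -1.45 in MDA-MB-231 sets 1 and 2. For S100P they were 1.11 and 0.83, against -0.92 in set 1 and a set 2 that was at the floor, so that the S100P value depends on the offset added to the counts. All MDA-MB-231 libraries belong to run 2 and the SUM159 libraries of this test to run 1, and both genes also differed between the runs in SUM159 wild type cells (-3.04 and 3.65). Line and run cannot be told apart here.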

How the results depend on the processing

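The number of members called depended most on the test. The moderated test of limma called 8, 7, 6 and 7 members with All gRNA, with gRNA 4, in set 1 and in set 2, and edgeR 8, 7, 5 and 7. For All gRNA against gRNA 4, set 2 against set 1, No gRNA against wild type in SUM159 and in MDA-MB-231, the runs, the wild type lines and the difference between lines, the counts were 3, 8, 9, 3, 6, 7 and 6 by the moderated test and 2, 8, 9, 3, 6, 7 and 5 by edgeR. S100A4 with All gRNA was called by the moderated test (-1.54) and by edgeR (-1.55). With wild type as the control TREAT called 3, 4, 3 and 1 members in the targeted comparisons. The All gRNA count fell to 0 without a filter, with only the 6 libraries compared, and with the replicate block. Replicate numbers did not pair the samples (correlations of deviations between -0.065 and 0.045 in SUM159 and between -0.035 and 0.036 in MDA-MB-231), and the replicate block changed no other count by over 1.5 times.

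Leaving out libraries gave 0 to 1 members with All gRNA (0 without No gRNA replicate 1 or 3 or any All gRNA library), 0 to 1 for set 2 against set 1, 0 to 1 for SUM159 No gRNA against wild type and 1 to 2 for the difference between lines, the last without replicate 2 or 3. Signs turned with wild type as the control for S100A11 (-0.0088) and S100A10 (-0.34) with All gRNA, S100A10 with gRNA 4 (-0.23), S100P in set 1 (0.87) and S100A16 in set 2 (0.30). With libraries left out, values near 0 turned sign. They spanned -0.047 to 0.14 for S100A2 in set 1 (negative without No gRNA replicate 2), -0.068 to 0.0040 for S100A11 between All gRNA and gRNA 4, and -0.084 to 0.14 for S100A4 between the runs. In the difference between lines they spanned -1.37 to 0.48 for S100A14 and -0.046 to 0.069 for S100A10. The cause of these changes was not tested. Over all genes, TREAT called 60, 59, 231 and 651 in the targeted comparisons and 349, 373, 1323 and 227 against wild type, and with All gRNA 39 from the 6 libraries and 31 to 37 without a No gRNA library. Without the libraries of 1 number it called 256 to 283 in place of 483 between the sets, 85 to 91 in place of 231 and 315 to 348 in place of 566 for No gRNA against wild type, 531 to 676 in place of 1034 between runs and 78 to 97 in place of 164 for the difference between lines. Between All gRNA and gRNA 4 it called 0, against 3 by DESeq2 and 1 without a filter. Of 986 single-gene values, 848 kept direction and call, 110 gained a call, 16 lost one and 12 reversed. With 2 added in place of 0.5 all 32 ratios stayed lower, and S100P in set 2 went from -0.23 to -1.10. With no filter the difference between lines kept 2 calls, S100A9, which had 0 counts in MDA-MB-231, in place of S100A2. Genes with few counts, S100A8, S100P in set 2 and S100A14 (at most 38.5 counts in a library), are limited by depth.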
